A study of Homo sapiens and Mus musculus with 92 samples.

Results

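HEL cells in which MLL1 was knocked down (MLL1 KD) were compared with control cells (Ctrl) by RNA-seq. The comparison rests on 6 libraries of the 92 samples in the series, 3 of Ctrl and 3 of MLL1 KD cells, which were taken by their labels from the table of read counts of this experiment. HEL is an established human erythroleukemia cell line without a rearranged MLL gene, and the labels describe it as erythroblast. MLL1 KD cells carried a lentiviral pLKO.1 hairpin against MLL1, and the labels give Ctrl cells the genotype WT, whereas the study's methods name a non-targeting hairpin in the same vector as its control. Both groups were therefore pools of cells and not clones, 1 hairpin stands for the knockdown, and the study's methods describe 2 rounds of transduction with puromycin selection and a harvest after 72 h. The labels do not say whether the 3 replicates of a group were separate cultures, so p values measure the spread between these libraries, which may be technical.

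MLL1, encoded by KMT2A, is a histone H3 lysine 4 methyltransferase that works within a COMPASS-like complex of WDR5, RBBP5, ASH2L, DPY30 and menin. Its CXXC domain binds unmethylated CpG, and it keeps HOX and TALE homeobox genes active in blood stem cells and progenitors. HEL cells express embryonic and fetal globins together with megakaryocyte and mast cell genes, so that changes along several blood lineages can be read from their mRNA.

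The hairpin defines the perturbation, and its sequence is shown because the guide strand decides which transcripts can be paired. The target was found at 1 place in hg38, chr11:118474149-118474169 on the plus strand, in exon 3 of 36 of the canonical KMT2A transcript and within the coding sequence. In the guide, capitals mark the seed (positions 2 to 8 from the 5′ end), and in the forward oligo they mark the guide.

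Target strand: gcactgttaaacattccactt

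Guide strand: aAGTGGAAtgtttaacagtgc

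Forward oligo: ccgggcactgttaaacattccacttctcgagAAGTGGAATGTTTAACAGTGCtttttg

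Total counts were 7107257 to 7950659 in Ctrl and 6966345 to 10380241 in MLL1 KD libraries, and the TMM factors that scale them lay between 0.973 and 1.017. Levels are given below as CPM, which scale the counts of a library to a common total. All 11 markers of HEL cells, among them GATA1, TAL1 and ITGA2B, had at least 1 CPM in every library. Much of the spread lay between replicate 1 and replicates 2 and 3, in both groups. By the rule of the comparison, the main fit compared MLL1 KD with Ctrl within replicate numbers (the replicate block). The log2 ratios of pairs 1, 2 and 3 are given beside it. Pairs 2 and 3 join libraries by number only, since these libraries were no closer within a number than across numbers. In bulk RNA a lower level cannot be told apart as fewer cells that express a gene or less RNA per cell.

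KMT2A, the targeted gene (ENSG00000118058, chr11:118436456-118526832), had 1323, 1300 and 1258 CPM in Ctrl and 813, 815 and 835 CPM in MLL1 KD libraries. The groups did not overlap, and the level in MLL1 KD cells was 63.5% of Ctrl. edgeR's quasi-likelihood test gave KMT2A a log2 fold change of -0.66 with a standard error of 0.05 and a Benjamini-Hochberg adjusted p value of 3.5e-07, and the log2 ratios of pairs 1, 2 and 3 were -0.70, -0.67 and -0.59. When the replicate block was left out, the fold was the same and the adjusted p value of that test was 0.072, while that of DESeq2's Wald test was 6.7e-06. A two-sided exact permutation test of the 3 against 3 libraries gave p = 0.1, the smallest this design allows. Of the 31-base stretches of the KMT2A transcript, 21.8% also occur in another annotated gene. Whether reads from them were counted for KMT2A depends on the annotation used for counting, which is not given in the sources used here.

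A gene counted as called where it differed by 1.5-fold or more and its adjusted p value lay under 0.05. Of 14393 genes tested, 360 (2.5%) were downregulated and 319 (2.22%) were upregulated in MLL1 KD cells. At a fold change of at least 2 these numbers were 79 and 110. The number of calls depended on the replicate block and on the tool. Without the block edgeR called 9 genes in both directions together (0.0625% of those tested), although the unadjusted p value was under 0.05 for 1435 genes. DESeq2, run without the block on all genes with a count and filtered afterwards, called 109 down and 104 up, and all 213 were among the 679 genes called with the block. All 3 pairs moved one way in 675 of the 679 called genes. The selection favors this, since the calls came from a fit within these same pairs. The 3 MLL1 KD libraries lay below or above all 3 Ctrl libraries in 525 of the called genes, beside 9.08% of all tested genes that were entirely below and 8.64% that were entirely above. Without replicate 1 in either group, 490 of the 679 genes were called in the same direction, and without replicate 2 the number of upregulated genes was 208. The called genes were mostly protein coding, with 333 down and 292 up of 11960 tested, and 17 long non-coding RNAs fell and 14 rose of 874 tested. The median GC content of exons was 51.6% in downregulated and 46.1% in upregulated genes, beside 48.5% in all with a value, and Spearman's rho of the log2 fold change with it was -0.071 across genes, which are not independent.

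**Figure D1:**
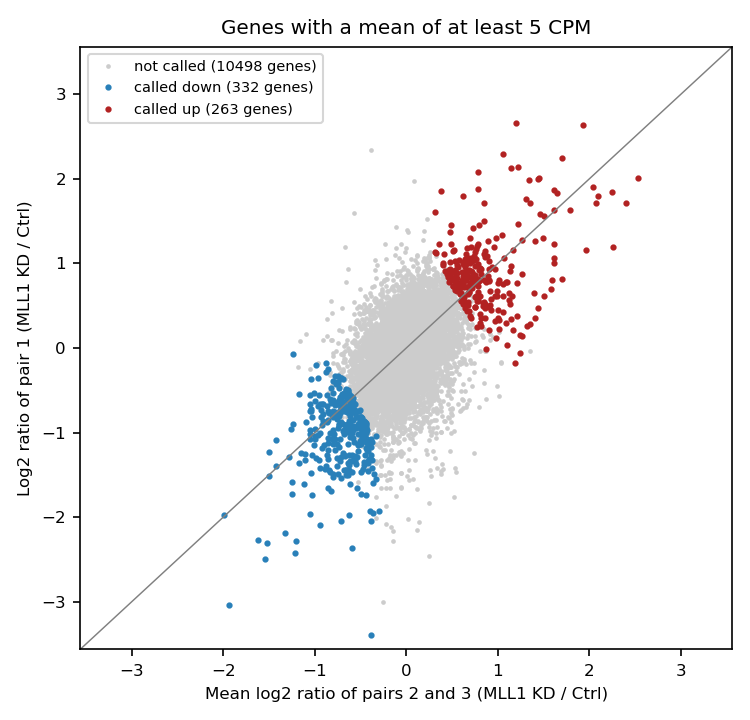
Log2 ratio of MLL1 KD to Ctrl in pair 1 (vertical axis) against the mean log2 ratio of pairs 2 and 3 (horizontal axis) for genes with a mean of at least 5 CPM, each point being 1 gene, with called genes in blue (332 down) and red (263 up) and the line of equal ratios in grey. Called genes, chosen by a fit within these same pairs, lie mostly in the lower left and upper right. A tail of uncalled genes in grey lies low in pair 1 with ratios near 0 in pairs 2 and 3.

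The pairs were alike in part. Across the 11093 genes with a mean of at least 5 CPM, the log2 ratios of pair 1 and the mean of pairs 2 and 3 had a Pearson's r of 0.53, a description across genes, which are not independent replicates. The effect of MLL1 KD in pair 1 differed from that in pairs 2 and 3 in 813 genes (5.65% of those tested, adjusted p under 0.05 for the interaction in edgeR's quasi-likelihood test) and in 211 genes by DESeq2's Wald test. Of the 813, 517 had the lower ratio in pair 1 and 296 the higher, and 357 moved in pair 1 against both other pairs. Of the 813, 76 (9.35%) were among the called genes, beside 4.72% of all tested genes that were called. Pair 1 holds 1 library of each group, so the p values of this interaction rest on the spread between replicates 2 and 3. They do not measure how far the effect in pair 1 would vary on repetition. The plot of the ratios of pair 1 against those of pairs 2 and 3 shows both the shared and the unshared part.

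Among genes with a mean of at least 5 CPM whose groups did not overlap, the 12 largest falls included transporters, granule proteins and enzymes. ABCC3, an organic anion exporter, had 15.7, 18.3 and 19.3 CPM in Ctrl and 1.69, 4.40 and 5.09 CPM in MLL1 KD libraries. This was the largest of these falls, to 21% of Ctrl, and it was deepest in pair 1 (log2 fold change -2.31, standard error 0.24). PRG2, the major basic protein of eosinophil granules, had 264, 212 and 196 CPM in Ctrl and 66.8, 48.4 and 53.9 CPM in MLL1 KD libraries. Its ratios were close in the 3 pairs at -1.98, -2.12 and -1.86, and 54.5% of its 31-base stretches occur in another gene. SLC6A8, the creatine transporter, fell to 27% of Ctrl (log2 fold change -1.91), and CALB2, the calcium-binding calretinin, to 26.7% (-1.87).

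ALAS2, which starts heme synthesis in erythroid cells, had 32.3, 39.9 and 33.0 CPM in Ctrl and 6.35, 11.8 and 13.2 CPM in MLL1 KD libraries. PHGDH, the first enzyme of serine synthesis, had 236, 326 and 333 CPM in Ctrl and 48.3, 143 and 143 CPM in MLL1 KD libraries. ALAS2 was lower in each pair with no difference called between pairs, whereas the fall of PHGDH was larger in pair 1 (log2 ratio -2.28) than in pairs 2 and 3 (-1.19 and -1.22). SMC1A, a subunit of the cohesin ring, had 316, 267 and 255 CPM in Ctrl and 120, 97.8 and 96.4 CPM in MLL1 KD libraries. SMC1A was among the most even changes, with ratios of -1.40, -1.44 and -1.40. The remaining 5 falls were those of COPG2 (coatomer subunit), TNFRSF9 (costimulatory receptor 4-1BB), TPSAB1 (mast cell tryptase), EIF3F (translation initiation factor subunit) and SEMA3C (secreted semaphorin), with log2 fold changes from -1.61 to -1.40. The plot of the largest changes by library shows all of them.

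**Figure D2:**
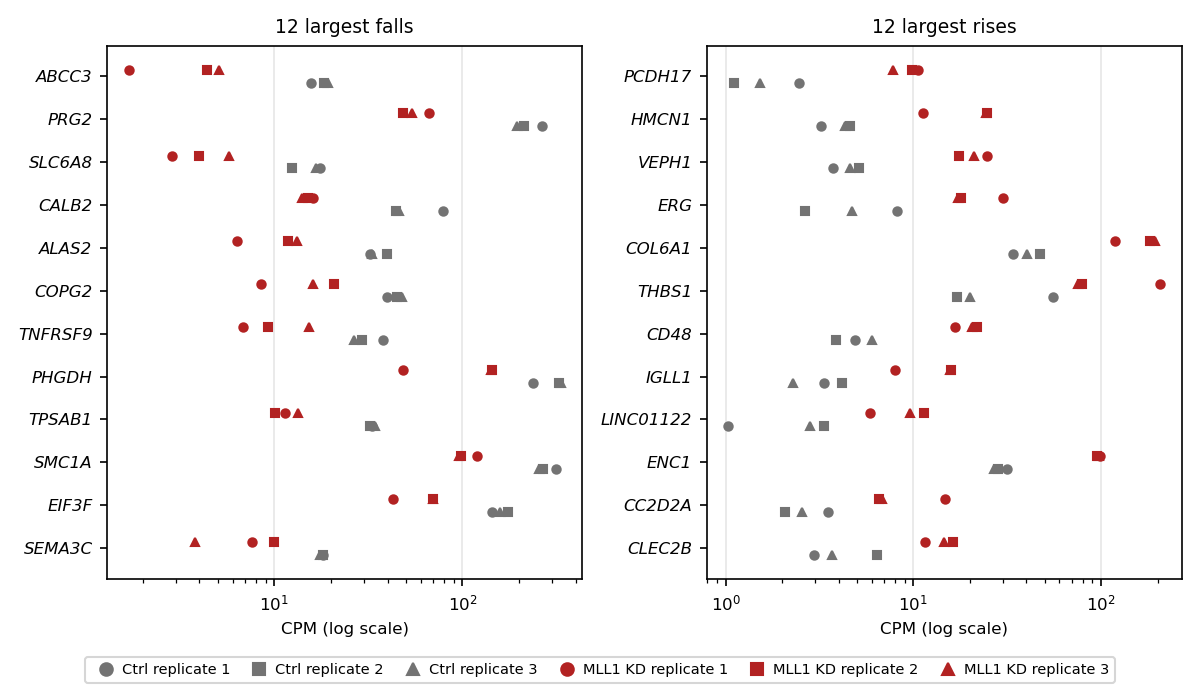
CPM on a log axis (horizontal) in each library for the 12 largest falls (left) and the 12 largest rises (right) among called genes with a mean of at least 5 CPM and no overlap between groups, 1 gene per row, with Ctrl in grey, MLL1 KD in red and a marker shape for each replicate. Red and grey points are apart in every row because genes with overlap were not eligible, and for THBS1 both points of replicate 1 lie to the right of replicates 2 and 3.

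The 12 largest rises held adhesion, matrix and lymphoid surface genes. PCDH17, a protocadherin, had 2.46, 1.11 and 1.53 CPM in Ctrl and 10.6, 9.80 and 7.79 CPM in MLL1 KD libraries. HMCN1, an extracellular matrix protein, had 3.23, 4.57 and 4.34 CPM in Ctrl and 11.2, 24.7 and 24.5 CPM in MLL1 KD libraries. Both were low in every Ctrl library, and their log2 fold changes were 2.46 (standard error 0.30) and 2.27 (standard error 0.21). COL6A1, a chain of collagen VI, rose from 33.9, 47.4 and 40.3 CPM in Ctrl to 118, 182 and 194 CPM in MLL1 KD libraries. THBS1, the platelet and matrix protein thrombospondin, had 55.2, 17.1 and 20.0 CPM in Ctrl and 207, 78.8 and 75.1 CPM in MLL1 KD libraries. THBS1 was higher in replicate 1 of both groups, so its groups were separate by a small margin, while the ratio within each pair was large at 1.90, 2.19 and 1.89.

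ERG, an ETS transcription factor of stem and endothelial cells, had 8.15, 2.63 and 4.72 CPM in Ctrl and 29.9, 18.0 and 17.3 CPM in MLL1 KD libraries. CD48, a lymphocyte and progenitor surface protein, had 4.91, 3.88 and 5.99 CPM in Ctrl and 16.7, 21.7 and 20.4 CPM in MLL1 KD libraries. For CD48 the mean in MLL1 KD cells was 398% of Ctrl and for ERG 421%. ENC1, an actin-binding protein, had a log2 fold change of 1.75, and its MLL1 KD libraries lay between 95.3 and 98.3 CPM against 27 to 31.6 CPM in Ctrl. VEPH1, IGLL1 (surrogate light chain of B cell precursors), LINC01122 (long non-coding RNA), CC2D2A (ciliary protein) and CLEC2B (lectin-like receptor ligand) rose with log2 fold changes from 1.73 to 2.23. Of the 24 genes of both directions, edgeR also called PRG2, TPSAB1, SMC1A, VEPH1, COL6A1 and ENC1 without the replicate block.

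The most abundant called genes changed less. ABHD2, a lipase, fell from 2026, 1642 and 1587 CPM in Ctrl to 1052, 1097 and 1116 CPM in MLL1 KD libraries. GLUL, glutamine synthetase, had 1078, 837 and 882 CPM in Ctrl and 445, 549 and 534 CPM in MLL1 KD libraries, a log2 fold change of -0.87. PKM, the pyruvate kinase of proliferating cells, had 1941, 1383 and 1405 CPM in Ctrl and 1327, 676 and 668 CPM in MLL1 KD libraries. For ABHD2, GLUL and PKM the groups did not overlap and the size of the fall differed between pair 1 and the others, being larger in pair 1 for ABHD2 and GLUL and smaller for PKM. TXNIP, a thioredoxin inhibitor, had 373, 914 and 911 CPM in Ctrl and 194, 655 and 626 CPM in MLL1 KD libraries, and its groups overlapped because both libraries of replicate 1 were low. Without replicate 1 the log2 fold changes of ABHD2 and TXNIP were -0.55 and -0.51, short of the fold required.

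Among the abundant rises, MEF2C, a transcription factor of myeloid and B cell progenitors, had 457, 419 and 401 CPM in Ctrl and 759, 716 and 693 CPM in MLL1 KD libraries. MEF2C was the most even of them, with ratios of 0.73, 0.77 and 0.79. HSPA8, a constitutive chaperone, had 1455, 607 and 599 CPM in Ctrl and 3360, 1038 and 1024 CPM in MLL1 KD libraries, so that the groups overlapped and each pair rose. TPM4 (tropomyosin) and SPTBN1 (spectrin) had log2 fold changes of 0.75 and 0.73 with no overlap between groups. The adjusted p values of these 4 genes in edgeR's test without the replicate block ranged from 0.072 to 0.60.

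Among red cell genes the calls were all in 1 direction. Of 37 tested globin, heme and red cell membrane genes, 9 (24.3%) were downregulated and none was upregulated, and 15 were entirely below Ctrl. Among all genes tested, 2.5% were downregulated, 2.22% upregulated and 9.08% entirely below Ctrl, and these shares apply beside the lists below as well. The median log2 fold change of these 37 genes was -0.29, beside 0.00 for all genes tested. The median was -0.34, -0.21 and -0.22 in pairs 1, 2 and 3. Without replicate 1, 10 of them were downregulated, while without the replicate block edgeR called none and DESeq2 4 (ALAS2, HBE1, SPTB and CA2). Leaving out replicate 2 or 3 ended the calls of HBZ (log2 fold changes -1.34 and -1.04), HBB (-0.54 and -0.89) and HBA1 (-0.51 and -0.57).

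HBE1, the embryonic beta-like globin, had 128, 71.5 and 85.1 CPM in Ctrl and 52.1, 32.4 and 31.7 CPM in MLL1 KD libraries. HBG2, a fetal globin, had 401, 256 and 278 CPM in Ctrl and 254, 151 and 166 CPM in MLL1 KD libraries. In both genes replicate 1 was the highest library of its group and each MLL1 KD library lay below every Ctrl library, if narrowly in HBG2. HBZ, the embryonic alpha-like globin, fell from 3.36, 7.21 and 5.48 CPM to 2.38, 2.41 and 1.08 CPM. The adult globins HBA1, HBA2 and HBB fell with log2 fold changes of -0.64, -0.74 and -0.72. HBA1 and HBA2 overlapped between the groups, while HBB did not. The fall of HBA1 was smaller in pair 1 (-0.25) than in pairs 2 and 3 (-0.92 and -0.79). That of HBA2 was also smaller in pair 1 (-0.36 against -0.88 and -1.04). SPTB, erythroid beta spectrin, fell to 53.1% of Ctrl and CA2, carbonic anhydrase 2, to 56.8%. Of the 31-base stretches, 82.3% of HBA1, 82.6% of HBG2 and 87.0% of HBE1 occur in other annotated genes, against 45.1% of HBZ and 18.4% of HBB. HBA1 shared most with HBA2, and HBG2 and HBE1 with annotated loci that have no symbol. Reads may therefore be divided among genes. Genes of the list outside the call included the 2 most abundant, ANK1 (ankyrin, log2 fold change -0.21) and CA1 (carbonic anhydrase 1, 0.21).

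**Figure D3:**
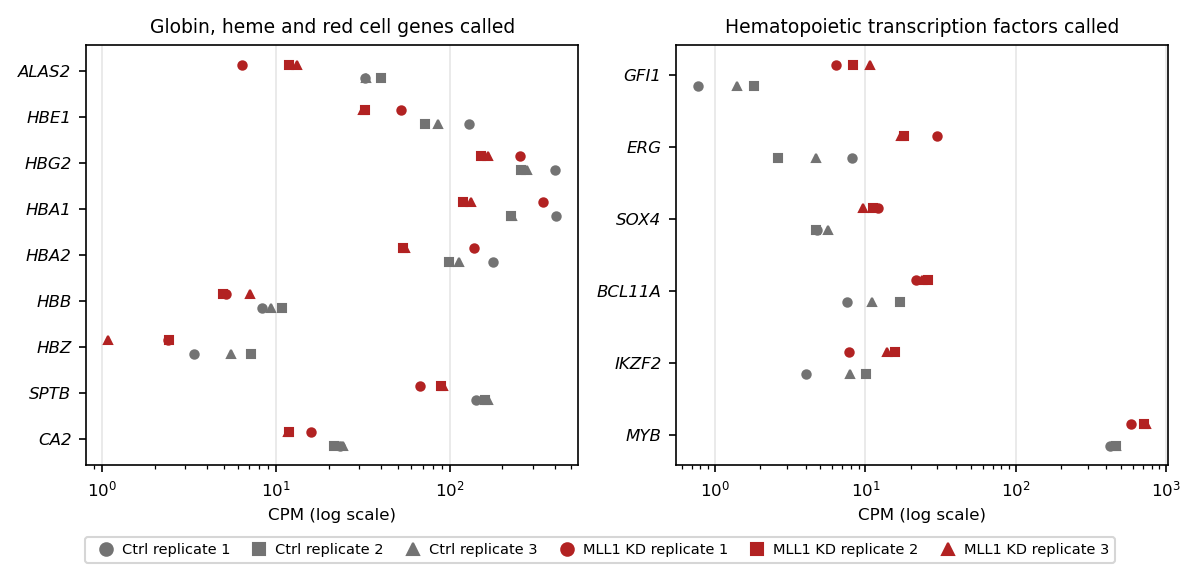
CPM on a log axis (horizontal) in each library for the 9 downregulated globin, heme and red cell genes (left) and the 6 upregulated hematopoietic transcription factors (right), 1 gene per row, with Ctrl in grey, MLL1 KD in red and a marker shape for each replicate. Only called genes are shown, and within every replicate the red point lies left of the grey one for the 9 genes and right of it for the 6.

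Of 29 hematopoietic transcription factors tested, 6 were upregulated (20.7%, beside 2.22% of all genes tested) and none was downregulated. Their median log2 fold change was 0.17. GFI1, a repressor that restrains stem cell division and directs granulocyte and lymphoid fate, had 0.776, 1.80 and 1.40 CPM in Ctrl and 6.35, 8.24 and 10.7 CPM in MLL1 KD libraries. MYB, required for progenitor growth, had 422, 461 and 464 CPM in Ctrl and 583, 714 and 732 CPM in MLL1 KD libraries. GFI1 was hardly expressed in Ctrl cells and MYB was abundant, and both rose without overlap (log2 fold changes 2.67 and 0.59). ERG, described above, was the sixth of them besides SOX4, BCL11A and IKZF2. SOX4 rose from 4.71 to 5.61 CPM in Ctrl to 9.63 to 12.1 CPM in MLL1 KD libraries, BCL11A, which silences fetal globin, rose to 201% of Ctrl, and IKZF2 to 169% with overlap between groups. GATA2 had 1159, 1744 and 1791 CPM in Ctrl and 726, 1305 and 1351 CPM in MLL1 KD libraries, and its log2 fold change of -0.50 missed the fold change required. RUNX1, the most abundant factor of the list, had a log2 fold change of 0.17. All 6 rises were also called without replicate 1, and without the replicate block edgeR called none of them and DESeq2 4 (ERG, GFI1, MYB and SOX4). Without replicate 2 the calls of MYB (0.56), SOX4 (1.06) and IKZF2 (0.87) were lost, and without replicate 3 those of MYB (0.55) and IKZF2 (0.76).

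Of 21 surface proteins of progenitors and leukemic cells, 5 were upregulated (23.8%, beside 2.22% of all genes tested) and 1 was downregulated (4.76%, beside 2.5%). CD24 had 15.7, 19.4 and 17.7 CPM in Ctrl and 63.6, 52.0 and 50.2 CPM in MLL1 KD libraries. CD34, the stem and progenitor cell antigen, had 10.1, 3.74 and 1.40 CPM in Ctrl and 22.9, 9.52 and 9.96 CPM in MLL1 KD libraries. CD24 was clearly apart in the 2 groups, while CD34 overlapped since replicate 1 was high in both. CD44, a hyaluronan receptor, rose to 178% of Ctrl and CD96 to 169%, and ENG, the endothelial and erythroid progenitor receptor endoglin, fell to 56.7%. The median over the list was 0.15, with 0.11, 0.17 and 0.22 in pairs 1, 2 and 3. Without the replicate block edgeR called CD24, and DESeq2 CD24, CD48 and ENG. CD69, an activation marker, was called down without replicate 1 (-0.69), and CD96 was not called without replicate 2 (0.63) or replicate 3 (0.55).

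The lymphocyte gene CD2 rose as well, from 5.17, 6.24 and 7.27 CPM in Ctrl to 18.1, 19.6 and 14.9 CPM in MLL1 KD libraries. It was 1 of 6 tested genes on the lymphocyte list and the only one called. Of the 5 T cell markers, CD2 alone had at least 1 CPM in every library, their sum was 5.43 to 7.40 CPM in Ctrl and 16 to 20.3 CPM in MLL1 KD libraries, and the defining T cell receptor genes had no count (CD3D) or at most 4 counts (CD3E) and 1 count (CD3G) in any library. B cell markers summed to 5.82 to 8.42 CPM in Ctrl and 3.98 to 6.93 CPM in MLL1 KD libraries, and monocyte markers to 2.36 to 4.21 and 0.992 to 3.27 CPM. The endothelial genes ROBO4 and FLT1 rose with log2 fold changes of 1.09 and 0.59, while the 4 endothelial markers together, among them CLDN5 with no count, summed to 124 to 135 CPM in Ctrl and 113 to 148 CPM in MLL1 KD libraries. Fibroblast markers summed to 9.84 to 15.5 CPM and 12.9 to 19.4 CPM. The upper end was replicate 3 of MLL1 KD, where COL1A1 had 8.98 CPM against 0.397 to 1.15 CPM in the other libraries. FLT1 was not called without replicate 2 (0.52), and the part of other cells in these results was not tested.

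Mast cell, basophil and eosinophil genes were divided, with 4 of 22 downregulated (18.2%, beside 2.5% of all genes tested) and 1 upregulated (4.55%, beside 2.22%). PRG2 and TPSAB1 belong to this list, and TPSB2, a second tryptase that shares 81.8% of its 31-base stretches with other genes, mainly TPSAB1, fell to 48.6% of Ctrl. CSF2RB, the common beta chain of the receptors for IL-3, IL-5 and GM-CSF, had 574, 614 and 586 CPM in Ctrl and 221, 374 and 399 CPM in MLL1 KD libraries. Its fall was larger in pair 1 (-1.38) than in pairs 2 and 3 (-0.71 and -0.55). ALOX5AP, needed for leukotriene synthesis, rose to 173% of Ctrl, and the abundant members FCER1A and HDC had log2 fold changes of 0.02 and 0.50 outside the call. Without the replicate block edgeR called PRG2 and TPSAB1, and DESeq2 also CSF2RB. Without replicate 1 the list had 3 upregulated genes, with HDC (0.60) and HPGDS (0.68) besides ALOX5AP, and TPSB2 (-0.86) and ALOX5AP (0.69) lost their calls without replicate 2.

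Megakaryocyte and platelet genes were split evenly, with 3 of 25 downregulated (LAT, P2RX1 and TUBB1) and 3 upregulated (MMRN1, PF4 and THBS1). TUBB1, platelet beta tubulin, had 23, 45.9 and 44.4 CPM in Ctrl and 8.33, 23.3 and 27.1 CPM in MLL1 KD libraries. MMRN1, a platelet granule protein, had 45.1, 41.0 and 46.0 CPM in Ctrl and 69.6, 103 and 91.7 CPM in MLL1 KD libraries. TUBB1 overlapped between the groups and MMRN1 did not. PF4, a platelet chemokine, rose to 231% of Ctrl, and the platelet integrin chain ITGA2B had a log2 fold change of -0.27 that was not called. Of 13 neutrophil and monocyte genes, NCF1 and CD68 fell and CYBB, the catalytic oxidase subunit, rose. NCF1 and CD68 share 91.4% and 93.1% of their 31-base stretches with other genes, as LAT does for 94.1% and PF4 for 65.4%. The calls of P2RX1 without replicate 1 (-0.53), of LAT (-0.58) and CYBB (0.75) without replicate 2, and of NCF1 without any of the 3 replicates (-0.49, -0.78 and -0.58) were lost.

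Of 21 integrins and adhesion molecules, 4 were downregulated (ITGB5, ITGB7, ICAM1 and ITGB2) and 1 was upregulated. ITGB5 had 73.5, 51.3 and 53.3 CPM in Ctrl and 23.1, 32.4 and 25.8 CPM in MLL1 KD libraries. ICAM1 had 70.5, 73.6 and 83.7 CPM in Ctrl and 25.5, 46.9 and 41.6 CPM in MLL1 KD libraries. Both were apart in the 2 groups with the largest fall in pair 1, and the median of the list was 0.04. Without replicate 2 the call of ITGB7 (-0.88) was lost. Of 15 collagens, laminins and matrix genes COL6A1 alone was called, although without replicate 1 NID2 (1.47) was called up and COL2A1 (-0.76) down, and HSPG2, the matrix proteoglycan perlecan, had a log2 fold change of -0.43 below the threshold.

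HOX and TALE genes are the best known targets of MLL1. Of 33 tested, 3 were downregulated and 1 was upregulated, and the median log2 fold change was -0.01. MEIS1, a TALE partner of HOX proteins (ENSG00000143995, chr2:66433452-66573869), had 76.9, 64.3 and 63.8 CPM in Ctrl and 41.2, 37.8 and 39.0 CPM in MLL1 KD libraries. MEIS1 fell without overlap to 57.5% of Ctrl and by a like amount in each pair (-0.90, -0.76 and -0.71). HOXB6 fell to 64.3% of Ctrl, and HOXD13 rose to 161% with overlap between groups. HOXB9, the most abundant HOX gene, had a log2 ratio of -1.12 in pair 1 and of -0.07 and -0.10 in pairs 2 and 3. Leaving out replicate 1 or 2 ended the call of HOXB6 (-0.48 and -0.68), while HOXB9 was called without replicate 2 (-0.60) or replicate 3 (-0.59). HOXA9 fell under the filter with 0 to 5 counts. MYC had 1026, 951 and 969 CPM in Ctrl and 858, 950 and 998 CPM in MLL1 KD libraries and was not called (log2 fold change -0.07).

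KMT2A was the only member called of 21 KMT2 and COMPASS subunits, and its paralog KMT2D had a log2 fold change of -0.10. No gene was called among 20 members of the super elongation complex, the DOT1L complex and P-TEFb, where AFF1 had a log2 fold change of 0.17, nor among 14 condensin and SMC5/6 subunits. In each, 3 genes passed the adjusted p value of edgeR's test at a smaller fold, beside 1939 of all 14393 genes tested at any fold. These counts used adjusted p values rounded to 2 digits, and over all genes unrounded values gave 999 down and 957 up. Of 28 Polycomb subunits CBX2 rose to 162% of Ctrl. Of 16 cohesin subunits and regulators SMC1A fell and STAG1 rose, the latter from 47.5 to 48.6 CPM in Ctrl to 67.0 to 87.3 CPM in MLL1 KD libraries, while RAD21, which closes the ring, had a log2 fold change of -0.10. Without replicate 1 neither CBX2 (0.47) nor STAG1 (0.52) was called, and CBX2 was not called without replicate 2 (0.66).

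Genes of the ATF4 response and of serine and glutamine metabolism, which cells use when amino acids are short, differed between pairs. Of 32 tested, PHGDH, GLUL, GLUD1 and CHAC1 were downregulated and none was upregulated, and the median log2 ratio was -0.58 in pair 1 against 0.06 and -0.01 in pairs 2 and 3. The effect of MLL1 KD differed between pair 1 and pairs 2 and 3 in 25 of the 32 genes (78.1%, beside 5.65% of all tested), and 23 of these were lower in pair 1. DESeq2's Wald test found the difference in 18 of the 32. CHAC1, which degrades glutathione, had 58.3, 86.5 and 83.2 CPM in Ctrl and 15.1, 66.0 and 62.7 CPM in MLL1 KD libraries. PSAT1, the second enzyme of serine synthesis and named here after its values were seen, had 115, 156 and 148 CPM in Ctrl and 25.8, 171 and 159 CPM in MLL1 KD libraries. In both genes the library of replicate 1 of MLL1 KD cells was far below the other 5, and PSAT1 was not called. Without replicate 1 CHAC1 had a log2 fold change of -0.40 and was not called. GLUD1, glutamate dehydrogenase, fell in all pairs (-0.70, -0.94 and -0.48).

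Of 35 glycolysis and hypoxia genes, PFKFB4, DDIT4, PKM and ALDOC were downregulated and none was upregulated, with a median of -0.28. DDIT4, an inhibitor of mTORC1, had 117, 281 and 247 CPM in Ctrl and 11, 201 and 200 CPM in MLL1 KD libraries. Its call was lost without replicate 1 (-0.40), since its ratio was -3.39 in pair 1 and -0.48 and -0.30 in pairs 2 and 3. ALDOC (aldolase C) and PFKFB4 (regulator of phosphofructokinase) fell in all pairs without overlap, by 0.80 and 0.75 on the log2 scale. The log2 fold changes of the most abundant members, GAPDH (0.18) and ENO1 (-0.05), were outside the call. Of 31 sterol synthesis and SREBP target genes HMGCS1 and SCD fell, both with overlap because replicate 1 was high in the 2 groups, and FASN had a log2 fold change of -0.04. HMGCS1 was not called without replicate 1 (-0.52).

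Signaling genes showed opposite single changes. PIK3AP1, an adaptor of PI3K, had 69.8, 64.0 and 64.3 CPM in Ctrl and 27, 26.6 and 30.2 CPM in MLL1 KD libraries. PIK3R2, a regulatory subunit of PI3K, had 48.1, 46.4 and 54.7 CPM in Ctrl and 93.5, 90.7 and 104 CPM in MLL1 KD libraries. Both were even across the pairs, PIK3AP1 down and PIK3R2 up, and 99.1% of the 31-base stretches of PIK3R2 occur in another annotated gene. UBASH3A, a suppressor of receptor signaling, rose from 65.1 to 73.7 CPM in Ctrl to 95.0, 139 and 134 CPM in MLL1 KD libraries, less in pair 1 (0.36) than in pairs 2 and 3 (1.09 and 0.91), and SOCS3 fell to 61.4% of Ctrl. Of 49 genes on the list 2 fell and 2 rose, PIK3AP1 was also called by edgeR without the replicate block, and SOCS3 was not called without replicate 2 (-0.51).

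Of 29 immediate early and ERK feedback genes, the feedback genes DUSP6 and ETV5 fell, and the AP-1 genes FOSL2 and JUN and the feedback inhibitor SPRY1 rose. FOSL2 had 10.6, 9.70 and 9.18 CPM in Ctrl and 22.6, 29.1 and 30.0 CPM in MLL1 KD libraries. DUSP6 had 71.0, 45.7 and 48.6 CPM in Ctrl and 38.0, 19.5 and 20.1 CPM in MLL1 KD libraries. FOSL2 was higher in each pair, with log2 ratios of 1.07, 1.56 and 1.68, and DUSP6 was lower in each, with -0.90, -1.22 and -1.26. Among annexins, tetraspanins, S100 proteins and galectins, 2 of 36 fell (S100A4 and S100A6, to 43.6% and 41.5% of Ctrl) and 3 rose (ANXA1, ANXA6 and LGALS1). ANXA1 had 9.70, 20.8 and 19.3 CPM in Ctrl and 15.0, 42.9 and 40.9 CPM in MLL1 KD libraries, so that the groups overlapped. TSPAN32 had a log2 fold change of -0.38 and was not called. The calls of JUN (1.04) and SPRY1 (0.54) were lost without replicate 2, and those of SPRY1 (0.54) and ANXA6 (0.57) without replicate 1.

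Of 39 interferon-stimulated genes, GBP1, IFI16, OAS1 and EPSTI1 rose and none fell, and the median was 0.00. OAS1, an antiviral sensor, rose from 1.66 to 2.36 CPM in Ctrl to 5.54 to 7.04 CPM in MLL1 KD libraries. IFI16, a DNA sensor, had 256, 275 and 262 CPM in Ctrl and 305, 454 and 467 CPM in MLL1 KD libraries. Of 17 MHC genes 16 had a negative log2 fold change, beside 7146 of all 14393 genes tested. HLA-E and HLA-B were called down, whereas B2M, the shared light chain, had a log2 fold change of 0.00. Of 30 p53 targets and BCL2 family genes, CCNG1, TP53INP1, BMF, FDXR and BBC3 fell and BAD, a pro-apoptotic BH3 protein, rose from 16.8 to 18.4 CPM to 27.4 to 35.7 CPM. The falls of BMF, FDXR and BBC3, of which BMF and BBC3 also encode BH3 proteins, were larger in pair 1, and without replicate 1 the list had 2 downregulated (CCNG1 and MDM2, -0.61) and 2 upregulated genes (BAD and TNFRSF10B, 1.78). Besides BMF (-0.31), FDXR (-0.42), BBC3 (-0.50) and TP53INP1 (-0.66), GBP1 (0.39) lost its call without replicate 1. The calls of GBP1 (1.21), EPSTI1 (0.72), IFI16 (0.55), HLA-B (-1.11), BBC3 (-0.91) and TP53INP1 (-0.99) were lost without replicate 2, and those of IFI16 (0.49), CCNG1 (-0.57) and TP53INP1 (-1.15) without replicate 3.

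**Figure D4:**
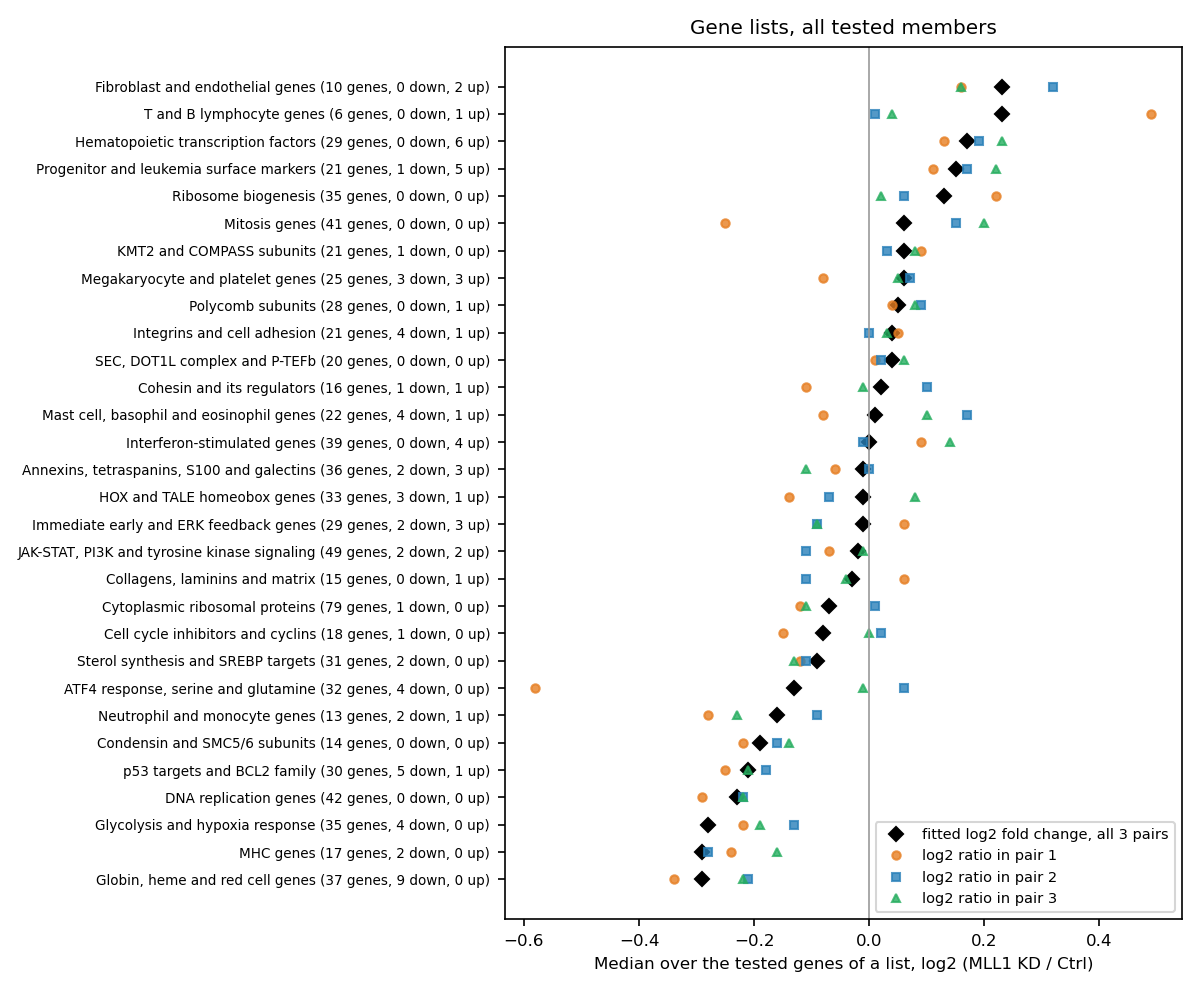
Median log2 ratio of MLL1 KD to Ctrl (horizontal axis) over all tested genes of each of 30 lists (rows, with the number tested, downregulated and upregulated), as fitted over all pairs (black diamonds) and in pairs 1, 2 and 3 (colored markers). Globin, heme and red cell genes and MHC genes have the lowest fitted medians at -0.29, and the ATF4 list stands out for the distance between pair 1 (-0.58) and pairs 2 and 3.

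Proliferation and ribosome genes had few calls. None of 42 DNA replication genes was called, although 39 had a negative log2 fold change, 15 passed the adjusted p value of edgeR's test at a smaller fold and the median was -0.23. Of all 14393 genes tested, 7146 had a negative log2 fold change and 1939 passed that adjusted p value at any fold. The counts of 15 and 1939 used adjusted p values rounded to 2 digits. MCM4, a subunit of the replicative helicase, had a log2 fold change of -0.40, and UHRF1, a factor of maintenance methylation, was called without replicate 1 (-0.68). None of 41 mitosis genes was called either, and their median was -0.25 in pair 1 and 0.15 and 0.20 in pairs 2 and 3. CCND1 (cyclin D1) fell with overlap, 1 of 18 cyclins and inhibitors. Of 79 cytoplasmic ribosomal proteins RPS12 fell to 64% of Ctrl, and of 35 ribosome biogenesis genes none was called. RPS12 (-0.55) and CCND1 (-0.68) were not called without replicate 1, nor was CCND1 without replicate 2 (-0.47). The plot of the gene lists shows these medians.

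Since the CXXC domain of MLL1 binds CpG, the 250 bases before the annotated start were read for 10240 tested genes with an entry in the RefSeq promoter table (GRCh38.p14). The median number of CpG was 21 for all of them, 18 for 268 downregulated and 18 for 239 upregulated genes. At most 5 CpG were present in 11% of tested, 15.7% of downregulated and 27.6% of upregulated genes. These are descriptions of the sequence and not of binding. The promoters of 2 genes that fell (ALAS2 and MEIS1) and 2 that rose (CD48 and MYB) are shown because each direction held both CpG-poor and CpG-rich starts, and capitals mark CpG.

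ALAS2, chrX:55030978-55031227, minus strand: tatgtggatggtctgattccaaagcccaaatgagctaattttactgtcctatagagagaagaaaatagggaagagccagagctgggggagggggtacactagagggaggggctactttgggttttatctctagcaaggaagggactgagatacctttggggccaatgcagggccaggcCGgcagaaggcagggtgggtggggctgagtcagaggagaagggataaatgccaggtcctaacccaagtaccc

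MEIS1, chr2:66434875-66435124, plus strand: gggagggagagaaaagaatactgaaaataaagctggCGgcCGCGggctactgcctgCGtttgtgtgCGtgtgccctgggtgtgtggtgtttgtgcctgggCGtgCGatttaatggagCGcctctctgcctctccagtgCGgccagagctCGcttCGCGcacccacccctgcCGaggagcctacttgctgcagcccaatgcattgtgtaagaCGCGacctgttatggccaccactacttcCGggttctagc

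CD48, chr1:160711823-160712072, minus strand: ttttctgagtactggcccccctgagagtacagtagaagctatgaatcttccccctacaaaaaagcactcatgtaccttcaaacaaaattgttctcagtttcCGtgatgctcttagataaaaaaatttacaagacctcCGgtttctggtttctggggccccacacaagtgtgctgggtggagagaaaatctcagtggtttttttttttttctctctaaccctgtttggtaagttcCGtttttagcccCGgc

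MYB, chr6:135181058-135181307, plus strand: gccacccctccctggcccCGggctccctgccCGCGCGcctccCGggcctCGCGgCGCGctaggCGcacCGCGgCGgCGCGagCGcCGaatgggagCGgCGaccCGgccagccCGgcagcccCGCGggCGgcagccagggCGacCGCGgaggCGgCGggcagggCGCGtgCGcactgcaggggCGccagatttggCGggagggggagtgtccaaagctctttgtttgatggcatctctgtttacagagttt

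These windows hold 1 CpG in ALAS2, 16 in MEIS1, 4 in CD48 and 34 in MYB. The motif GATA, searched on both strands, occurred 3 times in the ALAS2 window. Of all 27305 promoters listed, 46.5% held it, of those of tested genes 35.6%, of downregulated genes 37.7% and of upregulated genes 38.9%.

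The guide's seed pairs with the site TTCCACT, which was counted in the 3′ untranslated regions of canonical transcripts. It was present in 15.0% of 11925 tested genes with such a region, in 15.3% of downregulated and in 18.2% of upregulated genes, whose median lengths of that region were 1276, 1274 and 1799 bases. Genes with the site had a median log2 fold change of 0.02 and genes without it of 0.01. Among the 12 largest falls, SMC1A held it 2 times and EIF3F 1 time, and among the 12 largest rises PCDH17 and THBS1 held it 1 time each. Its part in these changes was not tested.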

How the data were processed

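RNA was measured by strand-specific RNA-seq of polyadenylated RNA in 3 Ctrl and 3 MLL1 KD libraries. Per the labels and the study's methods, the authors filtered reads with fastp version 0.13.1, mapped them to hg38 with HISAT2 version 2.1.0 and counted them per gene by strand with featureCounts version 1.6.1. The annotation is not given in the sources used here. The deposited values are raw counts for 28103 gene symbols, with no normalization, and the other experiments of the series were not used here. Symbols were matched to GENCODE version 44 directly (25237) or through RefSeq synonyms (735), in all 92.4%.

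Counts were analysed with edgeR version 4.0.16 (TMM, glmQLFit with the legacy method, glmQLFTest) in R version 4.3.3, with the replicate number as a block, over genes whose mean TPM, or mean CPM where no length was known, reached 1. The call combined a 1.5-fold difference with a Benjamini-Hochberg adjusted p value under 0.05. Pair ratios are log2 CPM with a prior count of 2. The block was set by the rule of the comparison. Deviations of libraries from their group mean correlated at 0.648, 0.326 and 0.352 between same-numbered libraries of the groups. Replicates 2 and 3 crossed correlated at 0.359 and 0.369, and replicate 1 with the others at -0.509 to -0.454. Deviations within a group cancel, so some negative values were built in. These values set replicate 1 apart and show no pairing of replicates 2 and 3 by number. Replicate 1 against replicates 2 and 3 was also fitted as an interaction, in which replicate 1 had 1 library of each group. DESeq2 version 1.42.0 and the other alternatives are in the closing section. The fit was tested on simulated data, and figures were drawn with Python version 3.11.15 and matplotlib version 3.10.9.

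The rule for named genes was KMT2A, genes named by the study or classical targets of MLL1, the 12 largest falls and rises with at least 5 CPM and no overlap between groups, the 5 most abundant calls in each direction, and from each of 31 gene lists up to 4 called genes and the 2 most abundant. A list of mitochondrially encoded genes had no tested member, and some genes on the lists are counted but not reported here by name. The comparison, lists and rules were chosen with earlier results of these data known. Overlap with other genes was measured as the share of 31-base stretches of the canonical transcript that occur in a transcript of another gene. Called genes without this share beside their values included RPS12 (57.5%), HSPA8 (44.7%), TPM4 (41.8%) and GLUD1 (34.3%). Total counts of 6966345 to 10380241 limit the precision of genes with few counts.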

Additional observations from a re-analysis of the deposited data

Results flagged for a closer look

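The effect of MLL1 KD in replicate 1 differed from that in replicates 2 and 3 in 813 genes at an adjusted p value under 0.05 for the interaction term in edgeR's test, and in 2526 genes at an unadjusted one. They were singled out because the difference between replicates was itself tested. The test had 1 library of each group for replicate 1, so its p values rest on the spread between replicates 2 and 3. DESeq2's Wald test gave 211 genes. Of the 111 called genes that belong to a list or were named, 26 were among them, 18 with the larger change in pair 1 and 8 with the smaller. HSPA5, SLC7A11 and CENPF, chosen after their values were seen, show the range. HSPA5, a chaperone of the endoplasmic reticulum, had 182, 93.5 and 107 CPM in Ctrl and 552, 68.6 and 66.2 CPM in MLL1 KD libraries. SLC7A11, the cystine transporter, had 90.1, 205 and 206 CPM in Ctrl and 45.5, 310 and 280 CPM in MLL1 KD libraries. CENPF, a kinetochore protein, had 310, 365 and 350 CPM in Ctrl and 218, 469 and 434 CPM in MLL1 KD libraries. In each of them pair 1 moved against pairs 2 and 3, and none was called over all pairs. Genes of mitosis differed in 17 of 41 cases (41.5%, 9 by DESeq2), all 17 lower in pair 1, and those of mast cells, basophils and eosinophils in 6 of 22 (27.3%, 2 by DESeq2). The labels give no date or batch for the replicates, so what set replicate 1 apart cannot be told from them.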

How the results depend on the processing

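When the replicate block was left out of the edgeR fit, 5 genes fell and 4 rose, and KMT2A kept its log2 fold change of -0.66 with an adjusted p value of 0.072, where the alternatives to it ranged from 1.6e-33 to 0.072. DESeq2 on the tested genes with the block called 257 down and 207 up, and 109 and 104 when both the block was left out and the filter was applied after the test. Without a threshold on the fold 999 genes were down and 957 up, and at a fold of 2 there were 79 and 110, with KMT2A (-0.66) not called. A replicate block of 2 levels (replicate 1 against replicates 2 and 3) gave 393 down and 356 up, and the other 7 alternatives that kept all libraries gave 300.0 to 428 down and 222 to 392 up. With a replicate left out, 290.0 to 428 genes were down and 208 to 355 up, the lowest without replicate 2, and KMT2A lay between -0.69 and -0.64. The interaction was called in 211 genes by DESeq2 and in 837 with total counts. The cause of these differences was not tested, apart from the thresholds themselves.

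All 111 called genes that were named or listed kept their sign under every alternative. Apart from the fold of 2, 89 of them were called under every one that kept the replicate block and all libraries. At a fold of 2, 63 genes lost their call. Genes that changed sign were uncalled. With GC offsets these were FCER1A (0.00), SMC4 (-0.01), CDK6 (-0.03) and INPP5D (0.01). B2M had 0.00 with DESeq2, with its size factors and at a mean TPM of 5, CDK6 had 0.00 with total counts, without a filter and with filterByExpr, and LGALS8 had 0.02 without the block in edgeR and DESeq2. With a replicate left out the ranges were -0.13 to 0.02 for MYC, -0.05 to 0.13 for FCER1A, -0.16 to 0.01 for RAD21, -0.14 to 0.09 for NIPBL, -0.03 to 0.10 for SMC4, -0.08 to 0.14 for LAMA5, -0.23 to 0.05 for SLC7A1, -0.01 to 0.01 for B2M, -0.08 to 0.05 for BTG2, -0.05 to 0.03 for CDK6, -0.06 to 0.02 for INPP5D, -0.15 to 0.19 for LGALS8 and -0.05 to 0.54 for CD6. Fits without a replicate keep 1 residual degree of freedom per gene.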

Other observations

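Several upregulated genes outside the lists encode receptors of immune cells, and were chosen after their values were seen. Other such receptors fell, among them TNFRSF9 and the listed CSF2RB (log2 fold changes -1.61 and -0.88), and immune receptors were not counted as a set. IL18RAP, the accessory chain of the IL-18 receptor, had a log2 fold change of 2.23. FCGR2B, the inhibitory Fc receptor, had 1.00, and the receptors TLR1, TLR4 and TLR6 had 1.6, 0.64 and 0.71. Among downregulated genes outside the lists were the receptor tyrosine kinases FGFR3 (-1.08) and ERBB2 (-0.69), the immune checkpoint ligands CD274 (-0.77) and CD276 (-1.09), MITF (-0.78), a transcription factor of mast cells and melanocytes, and HEMGN (-1.05), an erythroid nuclear protein. All of these were called by edgeR with the replicate block, and edgeR called none of them without it.

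Of the upregulated genes 5 had at most 3 counts in every Ctrl library and 1 downregulated gene at most 3 in every MLL1 KD library, and no fold change is given for them.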
